A study of Rattus norvegicus with 47 samples.

Results

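Nr2f6 and 9 further nuclear receptors of lipid, bile acid, energy and glucose metabolism were followed in the kidneys of rats fed a standard or a high-fat diet. The 10 genes were taken by symbol from a kidney mRNA table of 14747 genes, in which all 10 were present, and all 10 passed the filter on low values with which 13673 genes were tested. Nr2f6 was chosen on these samples, because the study picked it in its comparison by mesangial matrix increase. The other 9 genes were selected with the results of these data known.

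The animals were male Wistar Han rats, not genetically modified, that entered the study at 7 weeks of age and received a standard diet (SD, 8 rats) or a high-fat diet (HFD, 8 rats) for 10 weeks. Each library held the mRNA of the kidney tissue of 1 rat. Beside diet, the rats differed in 2 glomerular lesions of obesity-related glomerulopathy. Podocyte hypertrophy (PH) is an enlargement of the podocytes, the epithelial cells of the filter, and was present in 9 rats, 3 SD and 6 HFD. Mesangial matrix increase (MMI) is an excess of the matrix between the glomerular capillaries, and was present in 8 rats, 3 SD and 5 HFD. PH alone was present in 6 rats (3 SD, 3 HFD), MMI alone in 5 (3 SD, 2 HFD), both lesions in 3 HFD rats and neither in 2 SD rats. These lesion labels were read by eye from a published picture and not from the sample descriptions, and were least sharp for rats 1246, 1248 and 1249. In whole tissue, fewer cells of a type cannot be told apart from less RNA per cell.

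Nuclear receptors are transcription factors, many of them switched by small lipophilic ligands, that bind DNA and recruit corepressors or coactivators. Nr2f6, Nr2f1 and Nr2f2 form the COUP-TF family of orphan receptors, which often act as repressors. Nr1h2 and Nr1h3 encode the liver X receptors (LXR beta and alpha), which sense oxysterols, and Nr1h4 encodes the farnesoid X receptor (FXR), which senses bile acids. LXR and FXR bind DNA together with a retinoid X receptor, here Rxra or Rxrb. Esrra (ERR alpha) drives genes of mitochondrial energy metabolism, and Hnf4a is a factor of proximal tubule and liver identity that controls gluconeogenic and apolipoprotein genes.

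The values are the authors' normalized counts, and library totals after that normalization lay between 17623718 and 22565849. The first principal component of the 13673 genes carried 46.2% of the variance. On it 5 libraries, those of rats 1247, 1248, 1252, 1255 and 1274, lay between -78.3 and -54.3, while the other 11 lay between 1.39 and 75.7. All 5 had MMI and 1 of them, rat 1252, also had PH, so the receptors are given by lesion with and without them. All 10 proximal tubule markers checked were present in every rat, with a summed normalized count of 119554 to 256937.

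Nr2f6 mRNA was highest in the rats with PH alone and lowest in most rats with MMI. The 6 rats with PH alone had normalized counts between 2029 and 3910, with a median of 2697. The 2 rats with neither lesion had 1418 and 1409. The 3 rats with both lesions had 248, 1263 and 1325, and the 5 rats with MMI alone had 234, 302, 375, 798 and 1477. The lowest of the rats with PH alone was thus above every other rat, and the 5 lowest values belonged to the 5 rats that stood apart on the first principal component. The mean was 2476 ± 901 (SD, n = 8) without MMI and 753 ± 532 (SD, n = 8) with it.

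Esrra, Nr1h2, Rxrb and Rxra were arranged over the rats in the same way. Esrra had 2535 to 9380 (median 3914) with PH alone, and 322, 1408 and 1739 with both lesions. It had 1832 and 1597 with neither lesion, and 375, 392, 437, 781 and 2225 with MMI alone. The levels of Esrra in the rats with PH alone again lay above all others, with rat 1244 far above the rest. Nr1h2 had 2104 to 5605 (median 3106) with PH alone, 1690 and 1396 with neither, 389, 1340 and 1532 with both, and 383, 496, 520, 838 and 1689 with MMI alone. Rxrb had 998 to 2598 (median 1326) with PH alone, 834 and 806 with neither, 269, 572 and 716 with both, and 295, 319, 354, 470 and 738 with MMI alone. Rxra had 441 to 1079 (median 765) with PH alone, 320 and 200 with neither, 151, 318 and 391 with both, and 97.2, 132, 132, 238 and 340 with MMI alone. In 5 of the 10 receptors (Nr2f6, Esrra, Nr1h2, Rxrb and Rxra) every rat with PH alone was therefore above the other 10 rats, an arrangement that 4.99% of the genes tested had. These 6 rats are 6 of the 8 without MMI, so nothing is read from that count beyond the comparison by MMI on which Nr2f6 was chosen.

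**Figure D1:**
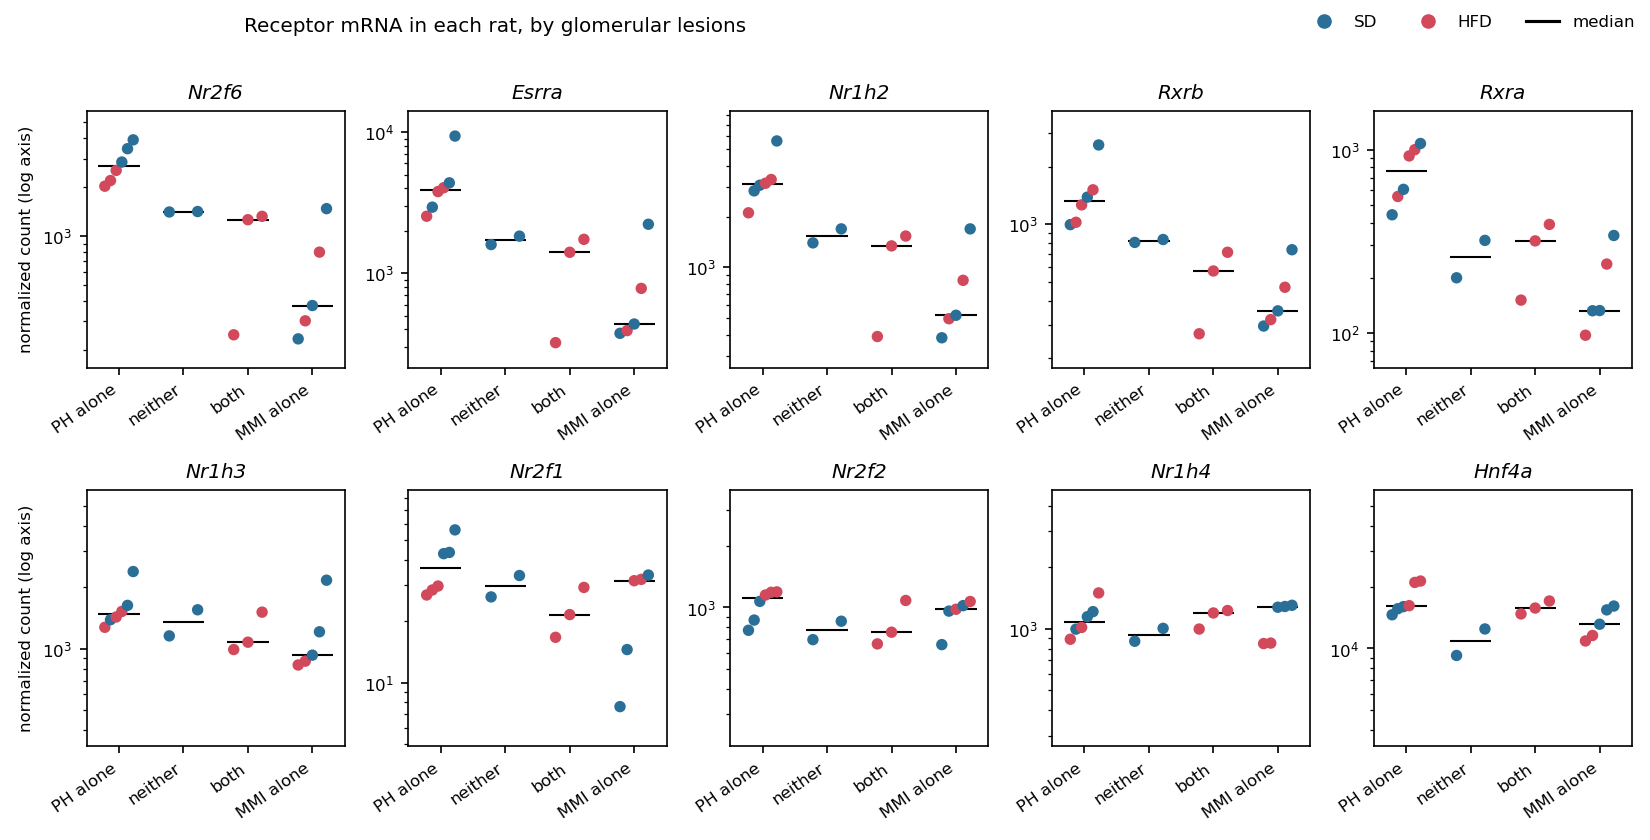
Normalized count (log axis) of each receptor in each of the 16 rats, by lesion set on the horizontal axis, with 1 point a rat (blue SD, red HFD) and a black line at the median. In the upper row the 6 rats with PH alone lie above all other rats, which is not so for any receptor of the lower row.

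The other 5 receptors did not share this arrangement. Nr1h3 lay between 834 and 2392, with its highest values in rat 1244 (PH alone, 2392) and rat 1250 (MMI alone, 2169). Its 8 values with MMI (834 to 2169, median 1035) overlapped the 8 without it (1158 to 2392, median 1479), although 5 rats with MMI were below all rats without. Nr2f1 lay between 7.62 and 55.9, and its 3 highest values were from SD rats with PH alone. Nr2f2 stayed between 658 and 1192 and Nr1h4 between 847 and 1499 in all rats. Hnf4a lay between 9240 and 21388. Its 9 values with PH (14619 to 21388, median 16028) overlapped the 7 without PH (9240 to 16133, median 12461), with 4 of the 9 above all 7.

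By diet, none of the 10 receptors passed the test. Nr2f6 was 1891 ± 1368 (SD, n = 8) in the SD group (234 to 3910, median 1447) and 1338 ± 863 (SD, n = 8) in the HFD group (248 to 2538, median 1294). The ranges overlapped almost fully, and the log2 fold change of HFD over SD, on the scale of log2 of the normalized count plus 1, was -0.39 (SE 0.63; limma adjusted p = 0.927). Across the 10 receptors the log2 fold changes by diet ran from -0.47 (Esrra, SE 0.68) to 0.22 (Nr2f2, SE 0.14), with limma adjusted p-values of 0.918 to 0.972. By diet 0% of the 13673 genes were called at a Benjamini-Hochberg adjusted p under 0.05, and 4.34% had an unadjusted p under 0.05, against 0 of the 10 receptors. Nr2f2 and Hnf4a each had 4 of 8 HFD rats above all SD rats. For Nr2f2 the median was 862 in SD and 1076 in HFD, and for Hnf4a it was 15034 in SD and 15988 in HFD (log2 fold change 0.18, SE 0.16, limma adjusted p = 0.918). With both lesions as covariates the log2 fold change of Nr2f6 by diet was -0.36 (SE 0.47; limma adjusted p = 0.816).

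By PH, the mean of every receptor was higher on the log2 scale in the 9 rats with the lesion than in the 7 without, but none passed the test over all genes. Nr2f6 was 2202 ± 1146 (SD, n = 9) with PH (248 to 3910, median 2199) and 859 ± 568 (SD, n = 7) without (234 to 1477, median 798). Of the 9 rats with PH, 6 were above all 7 without it, and the 3 that were not also had MMI. The log2 fold change was 1.40 (SE 0.54; limma adjusted p = 0.101). It was 1.55 (SE 0.58; adjusted p = 0.0954) for Esrra, 1.31 (SE 0.47; adjusted p = 0.0878) for Nr1h2, 0.96 (SE 0.38; adjusted p = 0.108) for Rxrb and 1.45 (SE 0.38; adjusted p = 0.0574) for Rxra. Hnf4a had 0.43 (SE 0.12; adjusted p = 0.0677). The remaining 4, Nr1h3, Nr2f1, Nr2f2 and Nr1h4, had log2 fold changes of 0.10 to 0.40 and adjusted p-values of 0.347 to 0.609. At an adjusted p under 0.05, 0 of the 10 receptors and 1.27% of all genes tested were called. At an unadjusted p under 0.05, 6 of the 10 were higher with PH, as were 17.1% of all genes tested.

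The comparison by PH depended on the rats and the model. With diet as a covariate, 6 receptors (Nr2f6, Esrra, Nr1h2, Rxrb, Rxra and Hnf4a) were called higher with PH, as were 15.8% of the genes tested, with log2 fold changes of 1.81 for Nr2f6 (SE 0.53; limma adjusted p = 0.0262) and 1.64 for Rxra (SE 0.40; limma adjusted p = 0.0179). With MMI as a covariate, no receptor and no gene was called (limma; 2164 genes had an unadjusted p under 0.05), and Nr2f6 had 0.75 (SE 0.41; limma adjusted p = 0.367). Without the 5 libraries that stood apart it had 0.67 (SE 0.30; limma adjusted p = 0.276). Without rat 1252, the only 1 of those 5 with PH, the same 6 receptors were called, Nr2f6 with 1.76 (limma adjusted p = 0.00957). In that fit 2292 of the 13673 genes tested were called higher with PH. Without rat 1250 (MMI alone) Nr1h2, Rxra and Hnf4a were called, beside 1155 genes called higher with PH. Without rat 1256 (both lesions) Rxra was called, beside 220 genes called higher.

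By MMI, 5 receptors had log2 fold changes of -2.15 to -1.47 and the other 5 of -0.68 to 0.06. These values describe the comparison on which Nr2f6 was chosen and are given without a test. Nr2f6 had 234 to 1477 (median 587) with MMI and 1409 to 3910 (median 2368) without, a mean 3.29 times higher without the lesion, and 7 of the 8 rats with MMI were below all 8 without. The log2 fold change was -2.00 (SE 0.40). It was -2.15 (SE 0.44) for Esrra, -1.81 (SE 0.35) for Nr1h2, -1.48 (SE 0.26) for Rxrb and -1.47 (SE 0.36) for Rxra. The LXR partners Rxra and Rxrb and LXR beta were thus among the lower genes, and LXR alpha (Nr1h3) had -0.40 (SE 0.19). The further retinoid X receptor Rxrg, which is not among the 10, had 0.33 (SE 0.78). The value of Nr1h3 was -0.49 with array weights and ran from -0.54 to -0.31 leaving out each rat. Nr2f1 had -0.68 (SE 0.28), Nr2f2 -0.12 (SE 0.15), Hnf4a -0.11 (SE 0.16) and Nr1h4 0.06 (SE 0.13). The count of receptors called lower in this fit was 5 of 10, beside 17.7% of all genes tested, and nothing is read from it because the genes were chosen with this comparison known. Rxrb was the 1 receptor in which all 8 rats with MMI (269 to 738, median 412) lay below all 8 without (806 to 2598, median 1146), which held for 0.322% of the genes tested. Without the 5 libraries that stood apart, 3 rats with MMI and 8 without remained. The log2 fold changes were then -0.79 (SE 0.28) for Nr2f6, -0.90 (SE 0.42) for Esrra, -0.81 (SE 0.33) for Nr1h2, -0.86 (SE 0.29) for Rxrb and -0.68 (SE 0.43) for Rxra, and no receptor and no gene was called (limma; 995 genes had an unadjusted p under 0.05).

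**Figure D2:**
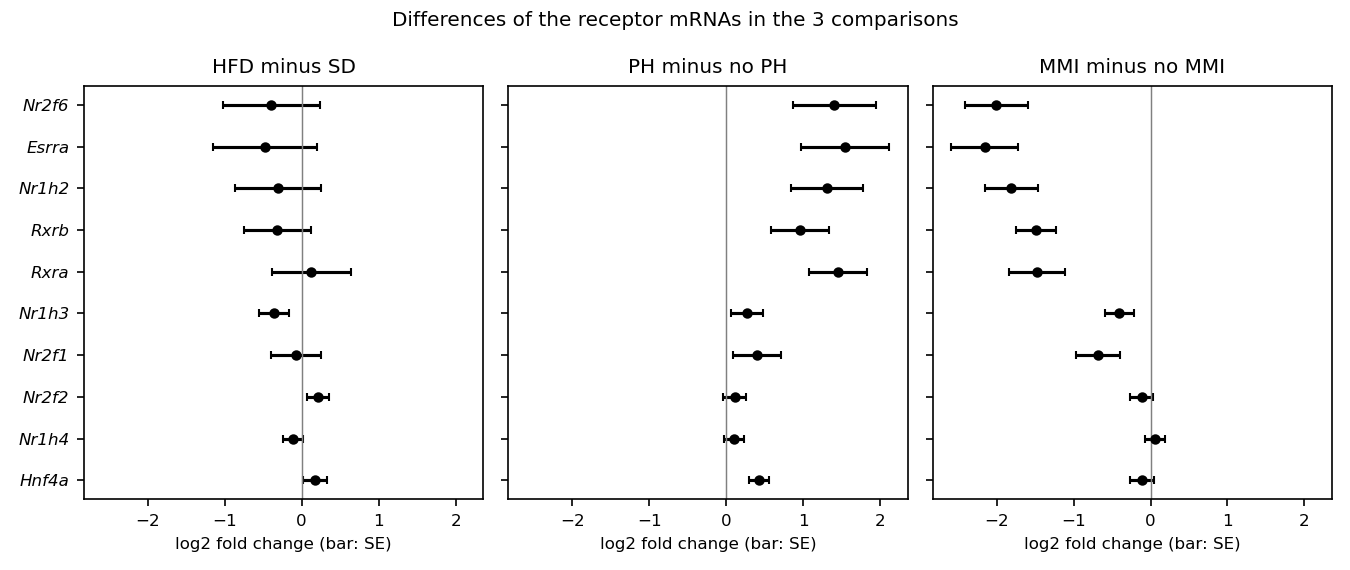
Log2 fold change with its standard error (horizontal bars) of each receptor by diet (8 HFD against 8 SD), by PH (9 against 7 rats) and by MMI (8 against 8 rats), on a common axis. Nr2f6, Esrra, Nr1h2, Rxrb and Rxra lie between 0.96 and 1.55 by PH and between -2.15 and -1.47 by MMI, while by diet all 10 lie between -0.47 and 0.22.

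Within each diet the mean of Nr2f6 was lower with MMI. This split re-uses the values behind the choice of the receptors, so it is a description and no separate support. Among the HFD rats, Nr2f6 was 248, 302, 798, 1263 and 1325 with MMI and 2029, 2199 and 2538 without, and the groups did not overlap. In 6 of the 10 receptors (the same 5 and Nr2f2) the 5 HFD rats with MMI were below the 3 without, as in 11.2% of all genes tested. Among the SD rats, Nr2f6 was 234, 375 and 1477 with MMI and 1409, 1418, 2856, 3450 and 3910 without. Here 1 rat with MMI, 1250, lay above both rats that had neither lesion. The log2 fold change of Nr2f6 by MMI was -2.23 (SE 0.62) in SD and -1.83 (SE 0.62) in HFD, and the difference of 0.40 did not pass the interaction test (limma adjusted p = 0.970). Over the 13673 genes tested, an interaction of diet with PH was called for 2 genes and one of diet with MMI for 0 (limma). An unadjusted p under 0.05 was found for 1111 genes by PH and 922 by MMI, so nothing is read from the receptor counts. No interaction of diet with either lesion was called for a receptor. The adjusted p-values were 0.501 or higher, and Nr2f1 by PH (1.17, SE 0.40, in SD and -0.34, SE 0.44, in HFD; limma adjusted p = 0.501) and Hnf4a by MMI (0.15, SE 0.20, in SD and -0.49, SE 0.20, in HFD; limma adjusted p = 0.706) were the 2 with an unadjusted p under 0.05.

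Over the 16 rats, the log2 values of Nr1h2 and Esrra followed those of Nr2f6 with Pearson correlations of 0.98 each (Spearman 0.96 and 0.98), those of Rxrb with 0.95 (0.96) and those of Rxra with 0.90 (0.92). Without rats 1247 and 1252, the farthest from the median of Nr2f6, these correlations were 0.97 for Nr1h2 and for Esrra, 0.93 for Rxrb and 0.90 for Rxra. Nr1h3 had 0.73, Nr2f1 0.37, Hnf4a 0.31, Nr2f2 0.02 and Nr1h4 -0.05. The close relatives of Nr2f6 in the COUP-TF family, Nr2f1 and Nr2f2, were less like it than the LXR and retinoid X receptors and Esrra over these 16 rats. Without the 5 libraries that stood apart, the correlations with Nr2f6 were 0.94 for Nr1h2, 0.92 for Esrra, 0.88 for Rxrb and 0.76 for Rxra, and those of Nr1h3 and Nr2f1 changed order, at 0.43 and 0.67. These correlations are a description: the rats share the differences between their libraries, and Nr2f6 itself had a correlation of 0.97 with the first principal component. Among the genes tested, 1139 (8.33%) had a correlation over 0.9 with Nr2f6 and 127 (0.929%) had one under -0.9. The 5 genes most like it were Dkc1 (0.992), which encodes the pseudouridine synthase dyskerin, Ssbp4 (0.991), Asmtl (0.991), Nagpa (0.990) and Znhit2 (0.990). The 5 most opposed were Abraxas2 (-0.962), Lars (-0.958), which encodes a leucyl-tRNA synthetase, Smad5 (-0.953), a transducer of BMP signals, LOC100360218 (-0.951) and Scaf8 (-0.949). Esrra stood at rank 86 of this order, Nr1h2 at 43, Rxrb at 410 and Rxra at 1138.

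**Figure D3:**
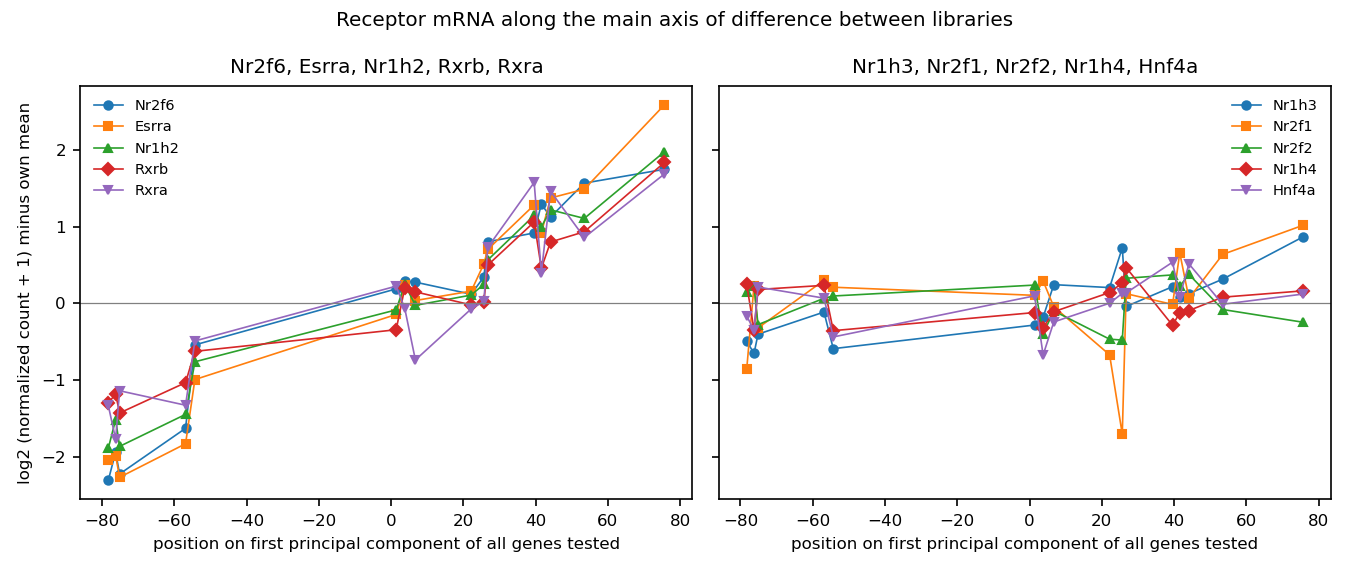
Log2 of the normalized count plus 1 of each receptor, minus its own mean over the 16 rats, against the position of each library on the first principal component of all genes tested. Nr2f6, Esrra, Nr1h2, Rxrb and Rxra climb along this axis from the 5 libraries at -78.3 to -54.3 to rat 1244 at 75.7, and Nr1h3 climbs less steeply, with a correlation of 0.83 with this axis against -0.07 to 0.42 for Hnf4a, Nr2f1, Nr1h4 and Nr2f2.

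The promoters of 8 of the 10 receptors were found in a RefSeq table of build GRCr8, which is not the build of the expression data. The 250 bases before the start of the gene are shown for 3 receptors that moved together over the rats, because their base composition differs. They lie on the minus strand at chr16:18087450-18087699 (Nr2f6), chr1:213543306-213543555 (Esrra) and chr1:104183864-104184113 (Nr1h2) and are written 5′ to 3′. Capitals mark the GC box GGGCGG or CCGCCC and the ETS core CCGGAAGT or ACTTCCGG.
Nr2f6: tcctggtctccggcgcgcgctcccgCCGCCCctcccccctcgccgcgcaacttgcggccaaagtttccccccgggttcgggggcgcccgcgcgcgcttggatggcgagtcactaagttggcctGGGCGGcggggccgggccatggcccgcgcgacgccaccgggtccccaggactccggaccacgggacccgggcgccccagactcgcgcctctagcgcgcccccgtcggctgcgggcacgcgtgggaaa
Esrra: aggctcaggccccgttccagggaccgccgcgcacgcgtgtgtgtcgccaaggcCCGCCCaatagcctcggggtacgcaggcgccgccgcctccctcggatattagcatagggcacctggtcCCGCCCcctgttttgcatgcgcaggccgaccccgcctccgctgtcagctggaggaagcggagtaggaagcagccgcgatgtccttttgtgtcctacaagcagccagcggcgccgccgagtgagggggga
Nr1h2: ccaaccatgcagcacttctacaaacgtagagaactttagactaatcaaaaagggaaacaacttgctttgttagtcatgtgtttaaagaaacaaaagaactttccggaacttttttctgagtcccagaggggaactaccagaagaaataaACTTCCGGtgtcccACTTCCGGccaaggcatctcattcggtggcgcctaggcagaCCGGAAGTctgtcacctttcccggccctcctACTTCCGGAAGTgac
In this window GC content was 77.6% for Nr2f6, 68.8% for Esrra, 74.0% for Rxrb and 82.8% for Rxra, each with 2 GC boxes, but 47.2% for Nr1h2, which had no GC box and 5 matches to the ETS core, of which the last 2 overlap. The median over 10481 tested genes with a promoter in the table was 60.0%. Among the other receptors, Nr2f1 had 69.2% with 1 GC box, Nr1h3 45.2% with none, and the 2 promoters listed for Hnf4a 52.4% and 54.8% with 1 GC box each. A GC box was present, on either strand, in 30.5% and the ETS core in 3.10% of the 33469 promoters of the table. The nuclear receptor element AGGTCA, searched on both strands, was present in 14.1% of them, its extended form TCAAGGTCA, which contains it, in 0.388%, and neither in the 250 bases of these 8 receptors. A match is a description of letters and not of a bound site. Nr2f2 and Nr1h4 were not in the table.

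The wider family and the known partners and targets of the receptors were compared on the same fit. Of 38 other nuclear receptors listed, 31 were tested, and 0 were called by diet. By MMI, 5 of 31 were called lower, near the 17.7% of all genes. These were Ppard, a fatty acid sensor (-1.53, SE 0.34), the retinoic acid receptors Rara (-0.97, SE 0.23) and Rarg (-0.80, SE 0.23), the thyroid hormone receptor Thra (-0.51, SE 0.15) and Nr0b2 (-1.05, SE 0.31), with limma adjusted p-values of 0.00817 to 0.0258. The list median by MMI was 0.07, against 0.03 over all genes, and that of the 10 receptors was -1.08.

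Among 18 tested coregulators, 3 were called lower and 3 higher with MMI, beside 17.7% lower and 8.37% higher of all genes tested. The lower ones included the coactivator Ppargc1b (-1.13, SE 0.27; limma adjusted p = 0.00962) and Gps2 (-0.56, SE 0.16; adjusted p = 0.0182), a subunit of the NCoR corepressor complex. Other subunits of that complex were the higher ones, the deacetylase Hdac3 (0.37, SE 0.10; limma adjusted p = 0.0139), Tbl1x (0.52, SE 0.16) and Tbl1xr1 (0.45, SE 0.14). The corepressor Ncor1 had 0.17 (SE 0.16). None of the 18 was called by PH or by diet.

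Of 35 tested target genes in 4 lists, 3 were called by PH, beside 1.27% of all genes, all of them higher. By MMI 4 were called lower and 3 higher, beside 17.7% and 8.37% of all genes. Of 10 tested LXR targets, Apoe, the apolipoprotein of lipid transport, was called higher with PH (2.41, SE 0.57; limma adjusted p = 0.0485) and lower with MMI (-2.54, SE 0.52; limma adjusted p = 0.00798). Fasn, the fatty acid synthase, was called higher with PH (1.52, SE 0.33; limma adjusted p = 0.0461), and Srebf1, which controls it, lower with MMI (-1.39, SE 0.34; limma adjusted p = 0.0107). Mylip and Smpdl3a were called higher with MMI (0.51, SE 0.17, and 0.47, SE 0.15), and the cholesterol exporter Abca1 had 0.57 (SE 0.23; limma adjusted p = 0.0734) by MMI and 0.70 (SE 0.21; limma adjusted p = 0.918) by diet. The list median by MMI was 0.09. Of 11 tested ERR alpha targets, 10 had log2 fold changes above 0 by MMI, with a median of 0.14 against 0.03 over all genes, while Esrra itself was lower. Only 1 target was called, Idh3a of the citric acid cycle (0.31, SE 0.10; limma adjusted p = 0.0275), beside 8.37% of all genes called higher. Of 9 tested HNF4A targets, 8 were above 0 by PH, with a median of 0.76 against -0.01 over all genes. Here 1 was called, Pck1, the enzyme of gluconeogenesis (1.21, SE 0.28; limma adjusted p = 0.0485). Of 5 tested FXR targets, Nr0b2, named above, was called by MMI and none by PH. By diet none of the genes in these 4 target lists was called. The calls by PH in these lists rest on the same rats as the call counts above, and leaving out rat 1244, 1247 or 1249 left no gene called by PH. Without the 5 libraries that stood apart, every call by PH or by MMI among the other nuclear receptors, coregulators, targets and cell markers was lost, since no gene was called (limma; 2412 genes by PH and 995 by MMI had an unadjusted p under 0.05).

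**Figure D4:**
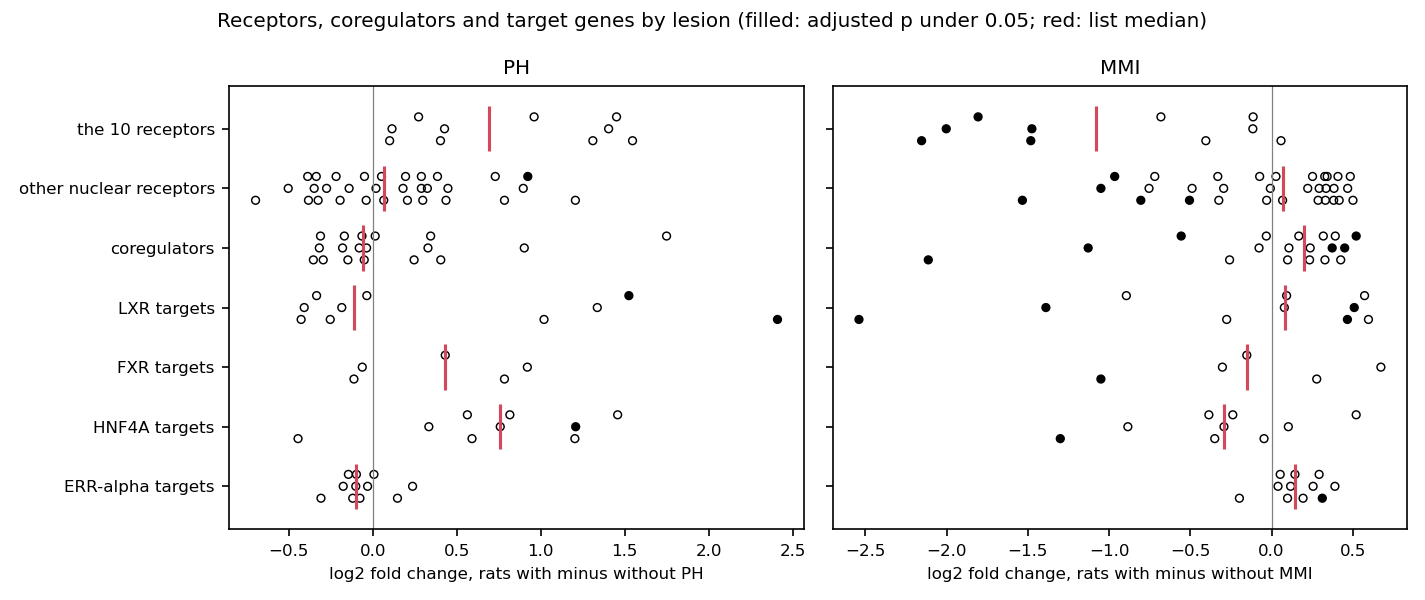
Log2 fold change by PH and by MMI of the tested genes of each list, with 1 circle a gene, filled where the limma adjusted p is under 0.05, and a red line at the list median. The 10 receptors have medians of 0.69 by PH and -1.08 by MMI, while the medians of the other nuclear receptors, coregulators, LXR targets and ERR alpha targets lie between -0.11 and 0.20, those of the HNF4A targets at 0.76 and -0.29, and those of the FXR targets at 0.43 and -0.15.

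Markers of kidney cell types differed with the lesions beside the receptors. All 6 podocyte markers were above 0 by PH, 2 of them called (Nphs1 1.35, SE 0.29, limma adjusted p = 0.0432, and Synpo 1.76, SE 0.33, limma adjusted p = 0.0403). Of all genes tested, 1.27% were called by PH. The summed normalized count of the podocyte markers was 4045 to 5990 in the 9 rats with PH and 1027 to 3876 in the 7 without. The groups did not overlap. The share of all genes with such a separation by PH was not counted, so nothing is read from it. By MMI 5 of the 6 podocyte markers were below 0, with sums of 1027 to 5750 with and 3353 to 5990 without the lesion. Of 10 proximal tubule markers 9 were above 0 by PH, with sums of 175496 to 256937 with and 119554 to 237152 without, and 8 were below 0 by MMI, with sums of 119554 to 237152 with and 142677 to 256937 without. The 4 red blood cell markers were all above 0 by PH, with sums of 21541 to 100940 with and 11709 to 35414 without the lesion, and the 4 thick ascending limb markers were all below 0, with sums of 80474 to 132154 with and 98977 to 206940 without. By MMI the directions were opposite in all 4 markers of each. The red blood cell sums were 11709 to 67836 with and 21541 to 100940 without MMI, and the thick ascending limb sums 87094 to 206940 with and 80474 to 132154 without, with 2 markers called higher (Cldn16 0.57, SE 0.17, limma adjusted p = 0.0231, and Kcnj1 0.68, SE 0.22, limma adjusted p = 0.0317). Among all genes tested, 8.37% were called higher with MMI. The 4 mesangium and stroma markers were all above 0 by PH (sums of 805 to 1506 with and 381 to 968 without) and all below 0 by MMI (381 to 1063 with and 678 to 1506 without), and none was called. None of the markers of these 5 cell types was at 0 in any rat. The part of these cell types in the differences of the receptors was not tested.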

How the data were processed

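Kidney mRNA of 16 rats was analyzed. Per the methods and the submitters' processing notes, reads were trimmed with Cutadapt, quantified with Salmon against Rnor6.0 and normalized with DESeq2 (1.24.0). The deposited signal values are the authors' normalized counts per gene. Steps of whole reads could not be recovered from them, so raw depth is unknown. The table's columns of means, fold changes and p-values hold the authors' comparison by diet and were not used, nor were the small RNA tables.

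A pseudocount of 1 was added before log2 transformation of genes with a mean of at least 5 (13673 of 14747). Groups were compared with limma (3.58.1, trended variance, R 4.3.3), two-sided, with Benjamini-Hochberg adjustment over all genes tested and a call at an adjusted p under 0.05. The script was tested on simulated data. Each rat is 1 sample of its group.

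The receptors and lists were chosen with earlier results of these data known. Named genes were the 10 receptors, the 5 most and 5 least like Nr2f6 by Pearson correlation, and up to 4 per list by the ratio of log2 fold change to standard error. Thra, Rxrg, Tbl1x, Tbl1xr1, Ncor1, Mylip and Smpdl3a were named after their values were seen. Some genes that the rule names are not reported here. The division of the receptors into 5 and 5 was also made after seeing values. Alternatives were other pseudocounts (0.5 and 5), filters (none, 20), scalings (trimmed mean of M values, equal totals), variance models, covariates, and rats left out.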

Additional observations from a re-analysis of the deposited data

Results flagged for a closer look

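In 7 of the 60 groups checked (10 receptors in the groups by diet, PH and MMI), 1 rat lay apart under a rule set to flag about 1 in 20 groups by chance. It was rat 1244 (SD, PH alone) each time. The rule was applied to normalized counts and not to the log2 values of the fits, so it does not describe distance on the log2 scale. Esrra was 9380 in this rat, with the next value at 4371 in the SD group, in the rats with PH and in the rats without MMI. Nr1h2 was 5605, with the next rat without MMI at 3312. Rxrb was 2598, with the next rat without MMI at 1516. Nr1h3 was 2392, with the next rat with PH, and without MMI, at 1633. These groups share rats, so the 7 are not separate observations.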

How the results depend on the processing

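No paired analysis was possible because the diets and lesions compared are those of different rats, whose numbers do not recur between groups. No receptor was called by diet under any alternative. The count of genes called by diet, 0, became 8 with array weights and 3 without the 5 rats that stood apart on the first principal component (an alternative chosen after seeing the data), and leaving out each rat gave 0 to 1.

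By PH, the 174 genes called became 87 with a fold limit, 90 with no filter, 63 with equal totals, 4976 with array weights and 3806 with diet as a covariate. They became 0 with the other lesion as a covariate, 0 without the 5 rats, 0 without rats 1246, 1248 and 1249, and 0 to 3804 leaving out each rat (0 without 1244, 1247 or 1249, and 3804 without 1252, 2144 without 1250, 419 without 1256). The receptors called by PH, 0, became 6 with array weights and 6 with diet as a covariate, and 0 to 6 leaving out each rat (6 without 1252, 3 without 1250, 1 without 1256). By MMI, the 3561 genes called became 1191 with a fold limit, 6532 with array weights, 1482 without rats 1246, 1248 and 1249, 1046 with the other lesion as a covariate, 0 without the 5 rats, and 2046 to 4953 leaving out each rat. The 5 receptors called became 0 without the 5 rats and 6, with Nr1h3, with array weights and without rat 1250 (5 to 6 leaving out each rat). Without rat 1250, 4953 genes were called. The receptors were chosen with this comparison known, so nothing is read from their counts. The causes were not tested.

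No called value changed direction. By diet, Nr2f1 was 0.15 without rats 1246, 1248 and 1249 and 0.0307 with both lesions as covariates, Hnf4a -0.00915 with both lesions as covariates, and Nr1h4 0.0283 without the 5 rats. Leaving out each rat, Nr2f1 by diet ran from -0.32 to 0.0692 and Rxra from -0.0897 to 0.39. Without the 5 rats, Nr1h3 was -0.0764 by PH and 0.0119 by MMI, and Hnf4a 0.0183 by MMI. Hnf4a by MMI was 0.0543 with the other lesion as a covariate, and Nr1h4 -0.00175 without rats 1246, 1248 and 1249. Raw depth is unknown for these normalized counts, so the precision of low genes such as Nr2f1 could not be set from counting error.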
